A study of Homo sapiens with 4 samples.

Results

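The MYC family and its partners form a network of 10 genes here: MYC, MYCN and MYCL, MAX, the MAX dimerization genes MXI1, MXD1, MXD3 and MXD4, MNT and MLX. They were chosen by name, 10 of 20037 protein-coding genes. A peak was counted for a member when its summit, the base of highest coverage, lay inside the gene or within 100 kb of it with no other protein-coding gene nearer. For MYC, all summits within 2 Mb were also taken. By these rules 3 of 5307 control peaks and 17 of 15993 TGF-β1 peaks belonged to the network.

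The peaks come from chromatin immunoprecipitation sequencing (ChIP-seq) of human cells labelled HSC, of the cell type stem cells and progenitors. One group was the control and the other received TGF-β1, a transforming growth factor, at 20 ng/mL for 2 h. Each had 1 ChIP library and 1 input library of sheared chromatin without immunoprecipitation, so 4 libraries in all. The labels of both groups also name GDF11 as a treatment, and whether any of these cells received it, which protein was immunoprecipitated and whether the cells came from 1 donor or culture are not given in the sources used here. With 1 ChIP library per group, no test between conditions was made. Each difference given is one between 2 single libraries, and its interval reflects counting error alone.

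MYC, MYCN and MYCL are transcription factors of the basic helix-loop-helix leucine zipper class that bind E-box DNA as dimers with MAX and activate genes of growth and cell division. MXD1, MXI1, MXD3, MXD4 and MNT compete for MAX and bring the SIN3 corepressor to the same sites, and MLX is a MAX-like protein that pairs with the glucose-responsive factors MLXIP and MLXIPL and with several MXD proteins. In blood, MYC is high in dividing progenitors and falls as red cells mature, and in many epithelial cells TGF-β lowers MYC transcription through SMAD proteins.

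The E-box CACGTG was searched on both strands in the 250 bases before each RefSeq start of the members (GRCh38.p14). It was present in 3 of the 12 start windows found for 9 members, those of MXD4, MNT and MLX, and in 6.34% of the 35116 windows of the whole table. No start window was found for MYC, so the MYC start was not searched for any motif. The lines below give these E-boxes in capitals, and the last 100 bases before the gene start for MYCN, MYCL and MXI1, which had an assigned peak and are the starts from which distances are given.

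MLX, chr17:42567023-42567082, plus strand: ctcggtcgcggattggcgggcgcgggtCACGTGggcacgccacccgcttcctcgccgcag
MNT, chr17:2401221-2401280, minus strand: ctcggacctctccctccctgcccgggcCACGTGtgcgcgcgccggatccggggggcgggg
MXD4, chr4:2262300-2262359, minus strand: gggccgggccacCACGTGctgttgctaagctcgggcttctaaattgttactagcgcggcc
MYCN, chr2:15940450-15940549, plus strand: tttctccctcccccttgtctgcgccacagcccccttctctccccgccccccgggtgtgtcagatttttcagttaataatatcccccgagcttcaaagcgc
MYCL, chr1:39901918-39902017, minus strand: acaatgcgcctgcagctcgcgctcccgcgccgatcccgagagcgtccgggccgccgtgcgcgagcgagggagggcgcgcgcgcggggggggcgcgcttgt
MXI1, chr10:110207505-110207604, plus strand: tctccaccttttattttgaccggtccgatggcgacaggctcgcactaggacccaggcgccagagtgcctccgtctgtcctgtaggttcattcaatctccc

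The CACGTG of MLX began 50 bases before its start, that of MNT 193 and that of MXD4 238 bases before. The SMAD palindrome GTCTAGAC was in none of the 12 windows (0.182% of all windows), and CAGACA was in 2, of MYCN and MXI1 (13.6% of all windows). The MXI1 window with CAGACA belongs to a start other than the one printed above. No peak of either list lay at any of the starts searched. The summit closest to a start was the TGF-β1 summit 8.9 kb before that of MYCL.

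No member had an assigned peak in the control list, and 4 of 10 had one in the TGF-β1 list: MYCN, MYCL, MAX and MXI1. Of all protein-coding genes, 9.28% had an assigned control summit and 25.3% a TGF-β1 summit. Each of the 4 had 1 peak. They made up 0.025% of the TGF-β1 list (Wilson 95% interval 0.00973% to 0.0643%). The same interval for the count of 0 in the control list ran up to 0.0723%, above that share. With counts this small and 1 ChIP library per group, these shares could not tell the lists apart. None of the 4 overlapped a control peak, as was the case for all but 4.81% of the TGF-β1 list.

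The MYCN peak had the highest fold of the 4. MYCN encodes the MYC paralog of embryonic and neural tissue and lies on chromosome 2 (15940550 to 15947004, hg38), 309 kb from DDX1 and 602 kb from CYRIA. Its peak (15868791 to 15868979) had a pileup, the number of overlapping ChIP tags at the summit, of 17. Its fold enrichment over the local background was 5.09 and its −log10 q 5.71. Only 5.19% of the TGF-β1 list had a higher fold. The summit was 71.6 kb before the MYCN start, in no RefSeq gene, and the nearest control summit to it was 197 kb away. A TGF-β1 summit of fold 5.58 lay 253 kb past MYCN and was also nearest to it, but over the 100 kb limit.

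The MYCL peak was the nearest to a start and stood over the highest local background. MYCL, the MYC paralog first found in lung cancer, lies on chromosome 1 (39895428 to 39901917) between TRIT1 and MFSD2A. Its peak ran from 39910712 to 39910854, with a pileup of 57 and a −log10 q of 6.88. The local background was 20.6 tags, 8.91 times the genome-wide level of that library, which left a fold of 2.68. A higher fold was listed for 82.9% of the TGF-β1 peaks. The other 3 members' peaks stood over 1.1 to 2.12 times the genome-wide background.

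The MXI1 peak was the only summit inside a member. MXI1 encodes a MAX partner that opposes MYC and lies on chromosome 10 (110207605 to 110287365). The peak (110276899 to 110277075) showed 15 tags at its summit, an enrichment of 3.25-fold and a −log10 q value of 2.42. The summit was 69.4 kb after the first of the 3 MXI1 starts, 51.1 kb after the last of them, 10.3 kb before the gene's far end and 13.7 kb from SMNDC1. Whether it lies in an exon or an intron was not analysed here. Summits inside the gene body were listed for 15.8% of protein-coding genes with TGF-β1 and 5.5% without.

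The MAX peak was the weakest by −log10 q and the farthest from its gene. MAX, the shared partner, lies on chromosome 14 (65006101 to 65102695). The peak (65192159 to 65192294) showed 16 tags at its summit, an enrichment of 2.88-fold and a −log10 q value of 2.01. Its summit was 89.5 kb from the upper end of MAX, where the gene starts. It was just inside the 100 kb limit, and the next summit, 104 kb from MYC, was just outside. The nearest control summit to MAX, 235 kb from it, belonged to FUT8 and had a pileup of 37 and a fold of 3.91.

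MXD1, MXD3, MXD4, MNT and MLX had no assigned peak in either list. The nearest TGF-β1 summits were inside other genes: ANXA4 (151 kb from MXD1), NSD1 (67.8 kb from MXD3), RNF4 (240 kb from MXD4), PAFAH1B1 (272 kb from MNT) and STAT3 (238 kb from MLX). Their folds ran from 2.54 at RNF4 to 3.92 at STAT3. The nearest control summits belonged to AAK1 (411 kb from MXD1), THOC3 (1331 kb from MXD3), ZNF732 (1981 kb from MXD4), SMG6 (123 kb from MNT) and ATP6V0A1 (122 kb from MLX). MNT and MLX were the members whose nearest summit was a control summit, and for the other 8 it was a TGF-β1 summit.

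**Figure D1:**
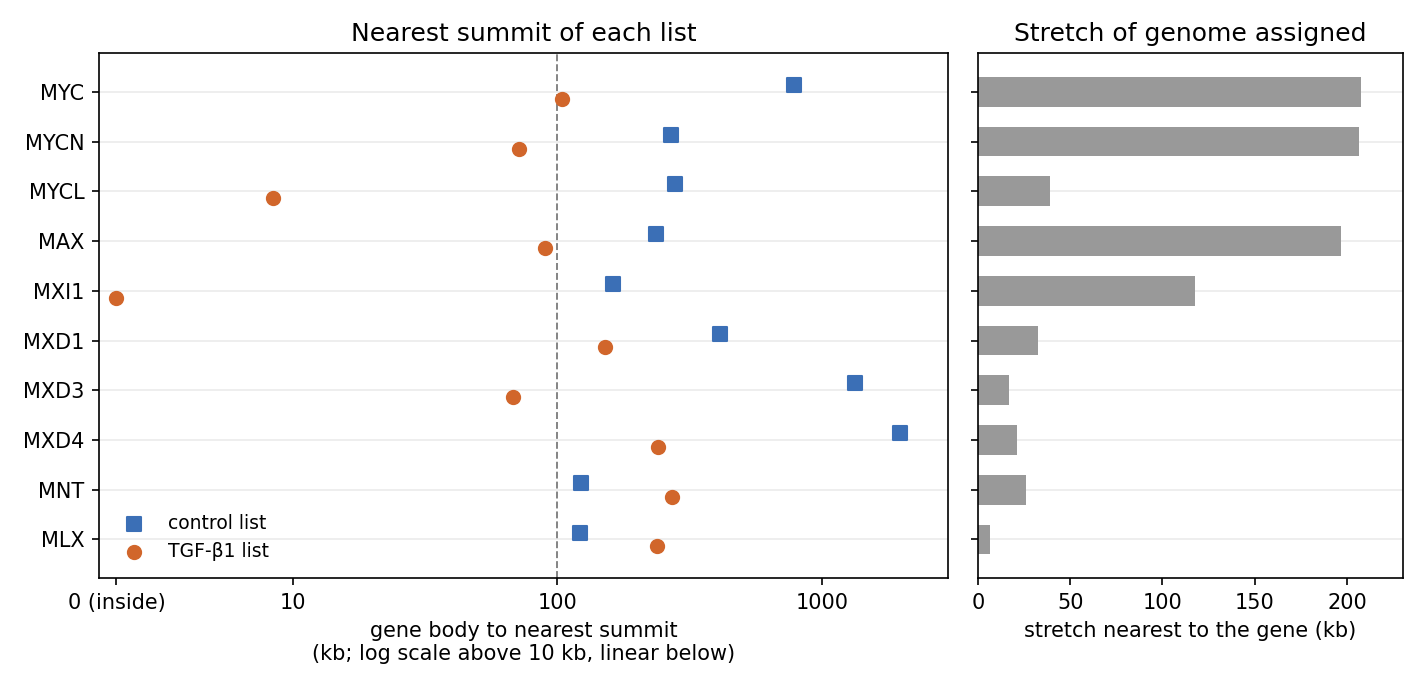
Distance in kb from each of the 10 genes to the nearest summit of the control list (squares) and the TGF-β1 list (circles), on an axis that is linear below 10 kb and logarithmic above, with the 100 kb limit dashed, and beside it the stretch of genome in kb that is nearest to each gene within that limit. The TGF-β1 summits of MXI1, MYCL, MYCN and MAX are inside the limit, that of MXD3 is inside but belongs to NSD1, and no control summit is inside.

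The members differed in how much genome could give them a peak. The stretch nearest to a gene within 100 kb was 208 kb for MYC, 206 kb for MYCN, 197 kb for MAX and 117 kb for MXI1. It was 39.1 kb for MYCL, 32.8 kb for MXD1, 25.8 kb for MNT, 21.1 kb for MXD4, 16.7 kb for MXD3 and 6.51 kb for MLX. Of the 4 members with the longest stretches, 3 had a TGF-β1 peak, and of the 6 with the shortest, MYCL alone did. When all protein-coding genes were divided by this length into 10 classes of equal size, a TGF-β1 summit was assigned to 50.7% of the genes in the class of MYC, MYCN and MAX, 41.5% in that of MXI1, 10.9% in that of MYCL and MXD1, and 0.749% in that of MLX. Over the members the nearest TGF-β1 summit was 96.8 kb away in the median (0 to 272 kb) and the nearest control summit 274 kb (122 to 1981 kb). The medians over all protein-coding genes were 86.4 kb and 361 kb.

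MYC (chromosome 8, 127735434 to 127742951) had no summit inside the gene in either list. Within 2 Mb of it lay 3 control peaks (exact Poisson interval 0.619 to 8.77) and 13 TGF-β1 peaks (6.92 to 22.2). The count ratio was 4.33 (exact interval 1.19 to 23.7), and the lists differ in length by 3.01 times. Taken as shares of each list the ratio was 1.44 (0.395 to 7.87), an interval that holds 1. Near MYC the control list had 0.749 peaks per Mb and the TGF-β1 list 3.24, beside 1.16 and 4.29 on the rest of the chromosome and 1.05 and 3.76 over the genome, both without bins of 1 Mb that hold 20 or more peaks.

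**Figure D2:**
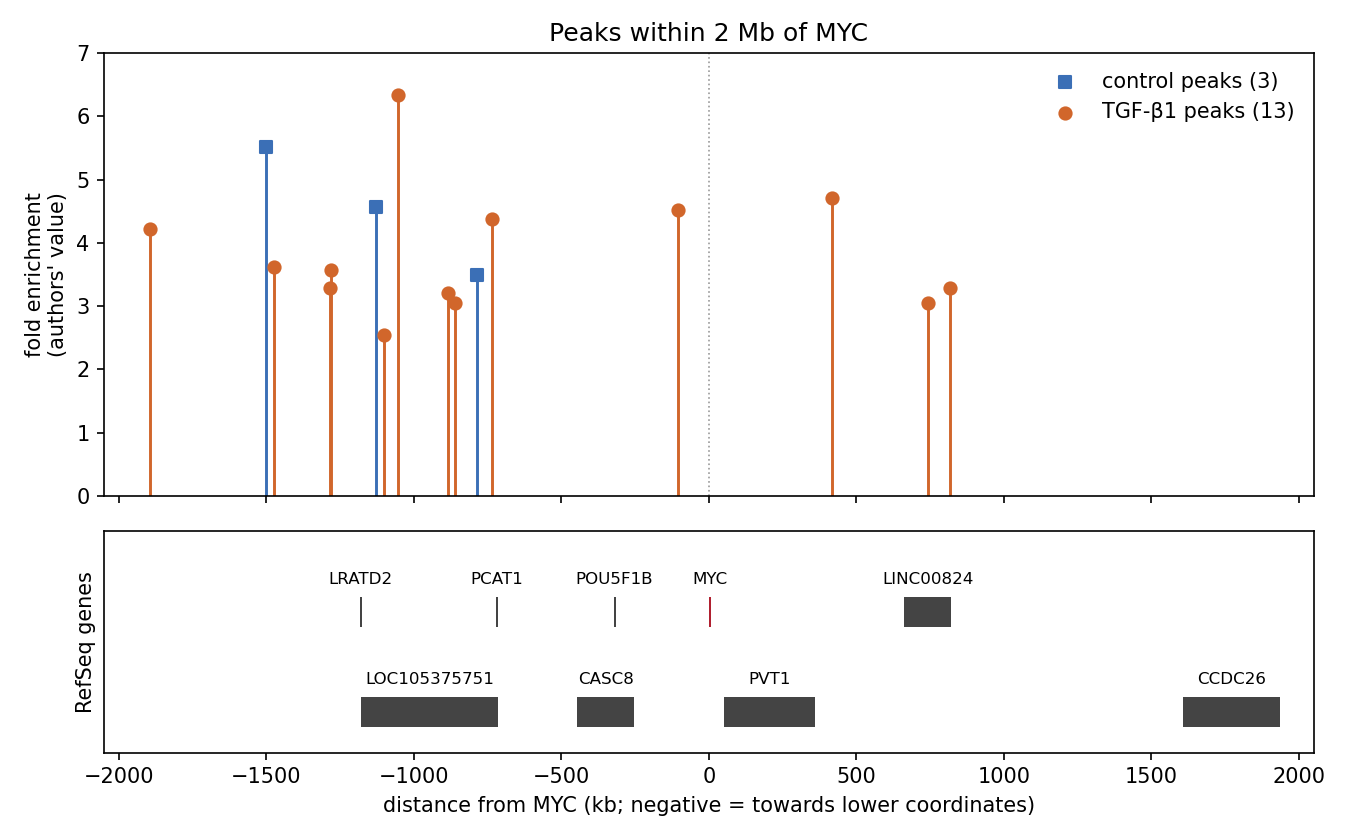
Fold enrichment of each peak within 2 Mb of MYC against its distance from MYC in kb (control squares, TGF-β1 circles), with RefSeq genes of the region below to scale. The 3 control peaks and 10 of the 13 TGF-β1 peaks lie on the lower-coordinate side, and no summit lies in MYC, PVT1, CASC8 or CCDC26.

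All 3 control summits and 10 of 13 TGF-β1 summits were on the lower-coordinate side, and no control summit lay on the other. Within 500 kb there were 2 TGF-β1 summits and 0 control summits. A further 5 TGF-β1 and 1 control summits were 500 to 1000 kb away, 5 and 1 were 1000 to 1500 kb away, and 1 and 1 were farther.

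The 2 nearest TGF-β1 peaks flanked MYC. The nearer one (127631318 to 127631461) was 104 kb below it, with a pileup of 15 and a fold of 4.52. It lay between POU5F1B, a retrogene of the pluripotency factor gene POU5F1, and the non-coding gene CASC11, 69.2 kb from the latter. Nearer on either side were the non-coding genes CASC8 (149 kb) and LOC105375754 (31.9 kb). The other (128159414 to 128159687) was 417 kb above MYC, with a pileup of 16 and a fold of 4.71. It lay 58.3 kb past PVT1, the non-coding gene that neighbours MYC and is often amplified with it, inside the uncharacterised LOC124902020 and 9.38 kb from the microRNA gene MIR1208. Between these summits 528 kb held no summit of either list, a stretch with MYC, CASC11, PVT1 and the microRNA genes MIR1204 to MIR1208. Of all protein-coding genes, 36.7% lay in a stretch at least as long without a summit of either list. In the control list the stretch around MYC without a summit was 5150 kb, and 8.42% of genes lay in one as long.

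Above MYC, LINC00824 held the other 2 TGF-β1 summits of that side. They were 744 and 816 kb from MYC with folds of 3.04 and 3.28. From there to the end of the window, 1184 kb, neither list had a summit. That stretch covers LINC00976, LINC00977 and CCDC26, in whose body distal enhancers of MYC are known from blood cells and which was 137 kb from the nearest TGF-β1 summit.

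Below MYC, 631 kb between the TGF-β1 summits at 104 and 735 kb also held none. The genes there include PCAT1, PCAT2, PRNCR1, CASC19, CCAT1, CASC21, CASC8 and CCAT2, non-coding genes of the cancer-risk region next to MYC, and POU5F1B. CASC8, the longest of them at 192 kb, was 149 kb from the nearest TGF-β1 summit and 340 kb from the nearest control summit.

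LOC105375751, an uncharacterised non-coding gene of 463 kb (126557876 to 127021031), held 5 of the 13 TGF-β1 and 2 of the 3 control summits. Its TGF-β1 summits were 1102, 1052, 885, 860 and 735 kb below MYC, with folds of 2.54, 6.33, 3.21, 3.04 and 4.38. The peak of fold 6.33 had a pileup of 20 over the genome-wide background of its library, 2.32 tags. The peak of fold 2.54 had a pileup of 29 over 10.8 tags. The control summits in the gene were 1128 and 786 kb below MYC with folds of 4.57 and 3.49 and pileups of 21 and 12. Among 346 RefSeq genes of 400 to 600 kb the median was 2 TGF-β1 and 0 control summits, and 6.65% had 5 or more TGF-β1 and 9.83% had 2 or more control summits. The gene was singled out after its counts were seen.

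Farther out, 4 TGF-β1 and 1 control summits lay in no RefSeq gene. The TGF-β1 summits were 1281, 1283, 1472 and 1893 kb below MYC, with folds of 3.57, 3.29, 3.62 and 4.22. The first 2 were 1.98 kb apart, 97.9 and 99.8 kb from LRATD2, the nearest protein-coding gene, which thereby took 3 of the TGF-β1 peaks and, at 48.7 kb, 1 control peak. The control summit, 1502 kb below MYC, had a fold of 5.52 and a pileup of 17, and 1.55% of the control list had a higher fold.

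No control peak near MYC overlapped a TGF-β1 peak. The closest pair of summits from the 2 lists was 26.5 kb apart, at 1128 (control) and 1102 kb (TGF-β1) below MYC, and the next 29.6 kb apart. Over the whole lists, 14.4% of control peaks overlapped a TGF-β1 peak. None of the 16 peaks near MYC stood over more than 5 times the genome-wide background.

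**Figure D3:**
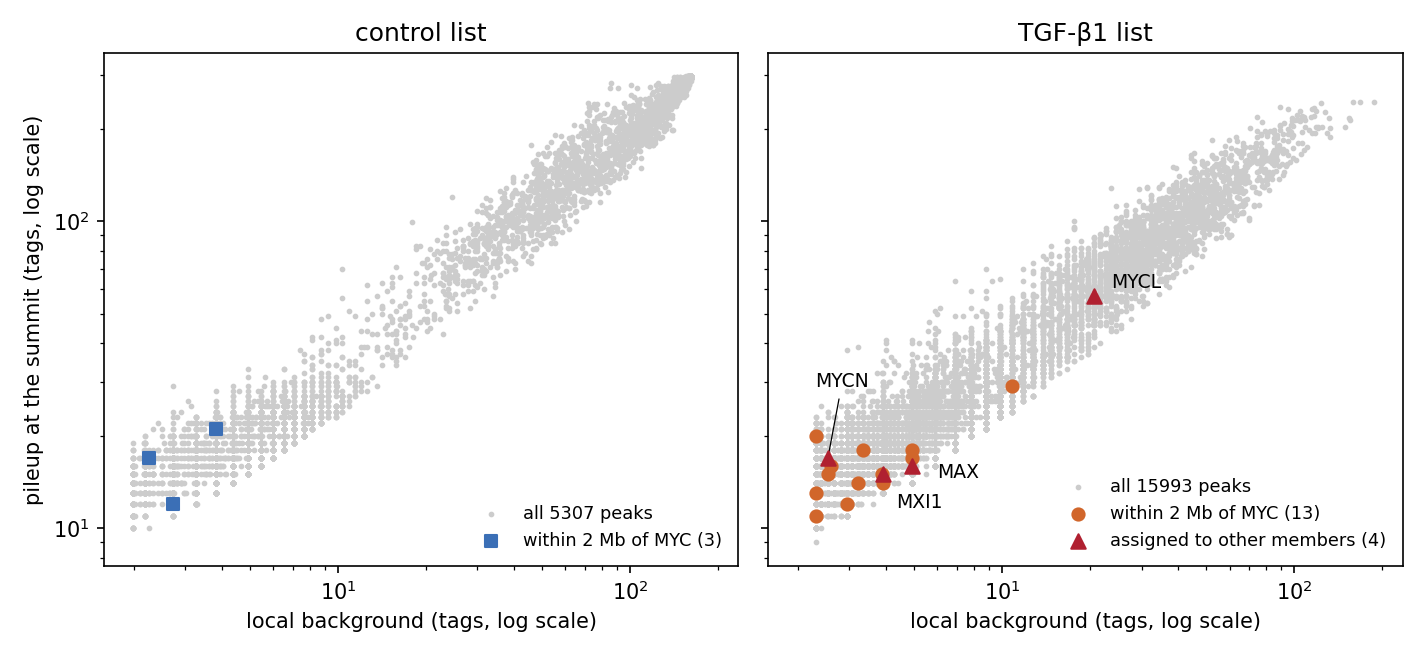
Pileup at the summit against local background, both in tags on log scales, for all peaks of each list (grey), those within 2 Mb of MYC (squares and circles) and those assigned to other members (triangles). Most of the network's peaks are at the low end, with pileups of 11 to 29, while the MYCL peak has a pileup of 57 over 20.6 tags.

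Near MYC, 7 of the 13 TGF-β1 peaks and all 3 control peaks had a fold above the median of their own list, 3.46 and 2.97. Over the lowest local background, the lowest fold called was 3.68 in the control list (pileup 10) and 3.02 in the TGF-β1 list (pileup 9). Of the network's peaks, 3 of 17 TGF-β1 and 0 of 3 control peaks stood over that background, and over higher background lower folds were called, as at the control peak in SMG6 (2.41). The ChIP libraries held 36280696 tags (control) and 45984282 tags (TGF-β1) after removal of duplicates, and their tags were 60 and 43 bp long. The input libraries differed the other way, with 66537905 tags (control) and 46802425 tags (TGF-β1). The part of ChIP depth, input depth and tag length in the counts was not tested.

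Windows of 2 Mb on each side of the other members held 1 to 6 control peaks and 6 to 31 TGF-β1 peaks. For MAX there were 3 control (0.619 to 8.77) and 31 TGF-β1 peaks (21.1 to 44), the highest TGF-β1 count of the 10. Among 723 tiles of 4 Mb without such dense bins, the median was 4 control and 16 TGF-β1 peaks, and 0.415% of tiles had 31 or more. The MAX ratio was 10.3 (3.22 to 52.8), beside 3.01 for the list lengths, which include dense bins. Outside dense bins the lists held 3169 control and 11351 TGF-β1 peaks, a ratio inside that interval. MAX was singled out for the highest TGF-β1 count of 10, and the MYCL ratio was higher, 14 (2.13 to 592). Among peaks reaching a −log10 q of 5 the MAX window held 1 control and 6 TGF-β1 peaks. After cutting the TGF-β1 list by fold to the length of the control list, it held 3 and 7.

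The 31 TGF-β1 peaks around MAX were spread over 16 below and 15 above the gene. CCDC196 and GPHN, the gene of the synaptic scaffold gephyrin, were nearest to 5 each, and SYNE2, a nuclear envelope gene, and FUT8, a fucosyltransferase gene, to 4 each. Their folds ran from 2.37 to 5.72 with a median of 3.50, against 3.46 over the whole list. The control peaks there were nearest to SYNE2, FUT8 and GPHN.

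**Figure D4:**
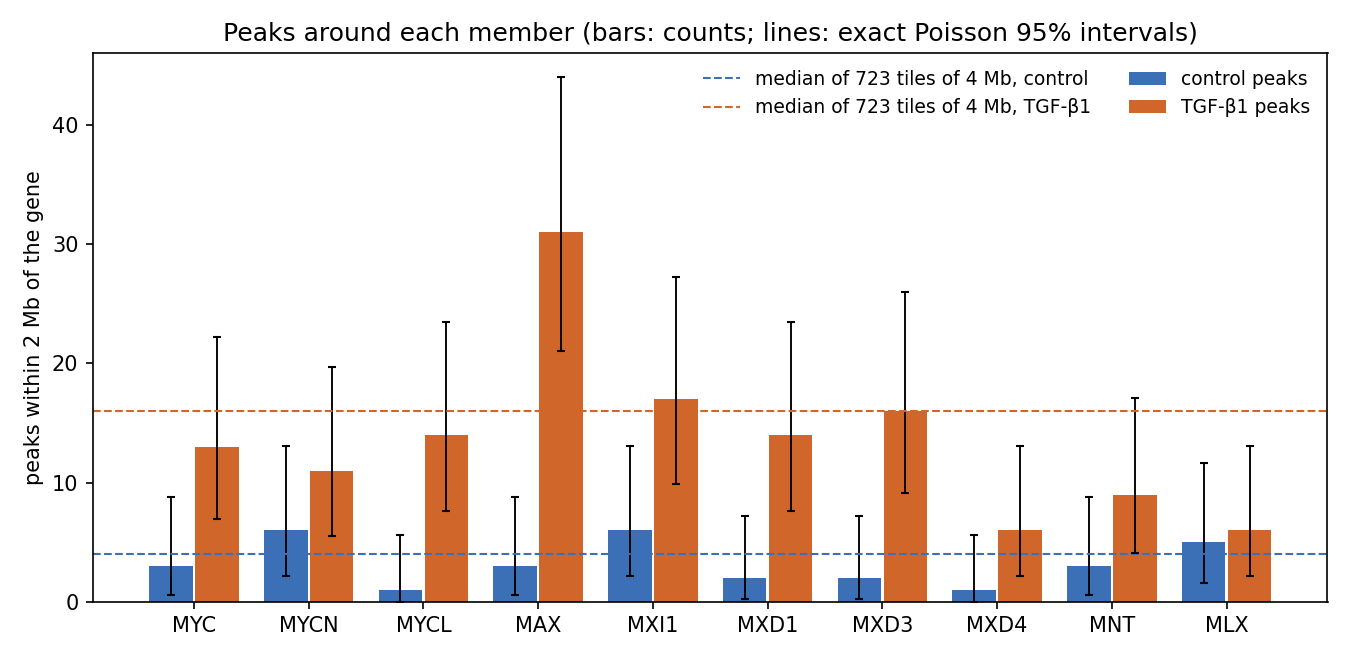
Number of control and TGF-β1 peaks within 2 Mb of each of the 10 genes, with exact Poisson 95% intervals and, dashed, the median count of 723 tiles of 4 Mb. The MAX window, with 31 TGF-β1 peaks, has an interval above the TGF-β1 tile median of 16.

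The other windows were nearer to the tiles. MXI1 had 6 control and 17 TGF-β1 peaks, MYCN 6 and 11, MYCL 1 and 14, MXD1 2 and 14, MXD3 2 and 16, MNT 3 and 9, MLX 5 and 6, and MXD4 1 and 6. All 9 intervals of the TGF-β1 counts other than MAX and all 10 of the control counts held the tile median or lay below it, and those lying below were MXD4 and MLX with TGF-β1 (2.2 to 13.1). Gene content differed, with 4 protein-coding genes in the MYC window and 155 in the MLX window. Among the 32 control and 137 TGF-β1 peaks of the 10 windows none overlapped a peak of the other list. All of these windows' peaks were outside dense bins, and over the genome outside such bins the overlapping share was 3.0% for the control list and 0.837% for the TGF-β1 list.

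Peaks at other genes of MYC biology were set beside the same backgrounds, 9.28% of genes for control and 25.3% for TGF-β1 peaks. A list of 10 further genes was drawn up around the MAX and MLX network. It also holds genes that do not encode MAX or MLX partners, MITF among them. Of the 10, MITF alone had a control peak (fold 3.73), and 2 had a TGF-β1 peak. These were MLXIPL, which encodes the MLX partner ChREBP (4.09, 3.08 kb away), and MGA, the gene of a MAX partner in a repressor complex (2.11). Among 25 MYC cofactor genes, control peaks were assigned to 4 and TGF-β1 peaks to 6. WDR5 (4.45), the corepressor gene NCOR1 (3.25), the coactivator scaffold gene TRRAP (3.14) and EP400 (2.78) had the control peaks. SIN3A, the corepressor gene of the MXD proteins (4.42), HDAC2 (3.05), NCOR1 (3.04) and EP400 (2.67) led with TGF-β1.

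Among 18 genes of MYC protein turnover, 1 was assigned control peaks and 6 were assigned TGF-β1 peaks. FBXW7, which encodes the ubiquitin ligase subunit that marks MYC for degradation, had 2 peaks in each list, of folds up to 3.52 (control) and 3.80 (TGF-β1). HUWE1 (3.92), MYCBP2 (3.65) and PPP2R5A (3.60) also had TGF-β1 peaks inside the gene. Of 37 MYC target genes, PPAT (3.36) had a control peak, and TFRC (3.80), ENO1 (3.65) and EIF4E (2.76) had a TGF-β1 peak. These are 2.7% and 8.11% of that list, below the backgrounds, and the stretch of genome nearest to these genes was not matched.

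Peak lists hold no expression, so the cell type of the labels could not be checked against RNA. Of 18 stem and progenitor genes, 3 (16.7%) were assigned control peaks and 7 (38.9%) TGF-β1 peaks. Of 12 genes of hepatic stellate cells, which share the abbreviation HSC, 1 (8.33%) and 5 (41.7%) were. Among all protein-coding genes the shares were 9.28% and 25.3%, and the stretch of genome nearest to the listed genes was not matched.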

How the data were processed

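The submitters' processing notes name Bowtie2, hg38 and MACS2 2.1.0, whereas the file headers give version 2.2.7.1 of the caller. Per the file headers, each ChIP library was compared with the input of the same condition, with peaks called to a q-value of 0.05 and at most 1 tag counted per position. Pileup (a coverage signal at the summit), fold enrichment (the ratio of pileup to local background after 1 is added to each), −log10 p-values and −log10 q-values are as the authors deposited them. They describe single peaks and were compared within a list. Of each ChIP and input pair, the deeper was scaled down, per the file headers. Local background was recomputed here from pileup and fold. Genes and start windows came from RefSeq GRCh38.p14, with start windows for 9 of 10 members, all but MYC. No genome sequence was used, so motifs were not searched in peaks.

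Distances run from summit to gene body. Peaks outside the autosomes, X and Y (252 control, 190 TGF-β1) were not assigned, because only genes on those chromosomes were used. Bins of 1 Mb with 20 or more peaks were called dense (68 bins). Python 3.11.15, pandas 2.3.3 and scipy 1.17.1 were used, and the assignment was checked against a direct search. The alternatives were stricter q limits, equal list lengths, low background, no dense bins, and other distances and windows. Members and lists were chosen with earlier results of these data known. The genes named are the members, all their peaks, the genes next to these peaks, and up to 4 genes per further list and condition in order of fold.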

Additional observations from a re-analysis of the deposited data

How the results depend on the processing

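The count of 0 members with a control peak, and that of 0 control peaks near MYC overlapping a TGF-β1 peak, held in every alternative run. Most of these only removed peaks or tightened a limit, under which a count of 0 cannot rise. The member count could have risen when any summit within 100 kb counted, nearest or not. The overlap count could have risen when summits within 1 kb counted. Both stayed at 0. The number of members with a TGF-β1 peak was 4 as deposited and 4 without dense bins. It was 5 when any summit within 100 kb counted, nearest or not (MXD3 added). It was 2 with a −log10 q of at least 5 (MYCL and MYCN), within 50 kb, within 10 kb and with the nearest of all RefSeq genes (MXI1 and MYCL in these 3), 1 with lists of equal length by fold (MYCN) and inside the gene (MXI1), and 0 at a −log10 q limit of 10. Over low local background it was 3, without MYCL. For TGF-β1 peaks near MYC, 13 as deposited, it was 1 and 0 at these q limits, 5 with equal lengths, 7 within 1 Mb and 2 within 0.5 Mb. For control peaks near MYC, 3 as deposited, it was 0 at the higher q limit, 1 within 1 Mb and 0 within 0.5 Mb. The ratio of shares, 1.44, fell to 0.25 (0.00423 to 4.8) at a −log10 q of at least 5, where fewer peaks were counted, and was 1.04 to 2.32 otherwise. It had no value where a count was 0. The settings for the MAX window were chosen after seeing the data. No paired analysis was possible because each group had 1 ChIP library. All 20 peaks but that of MYCL had pileups of 11 to 29, and the lowest called over the lowest background were 10 (control) and 9 (TGF-β1), so sites of fewer tags are not in the lists.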
